A study of Mus musculus with 9 samples.

Results

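The 2 libraries labelled EtOH DMSO were taken from the series by their titles, out of 7 bulk RNA-seq libraries and 9 samples in all, and are called library 1 and library 2 here. They are the vehicle arm of a study of how loss of Mettl3, the catalytic subunit of the enzyme that writes N6-methyladenosine on RNA, affects cell death in the intestinal epithelium. The other groups were EtOH with Nec-1, an inhibitor of the kinase RIPK1, 4-OHT with DMSO, 4-OHT with Nec-1, and chromatin profiles of Atf3. No contrast was made, and levels are given as FPKM, fragments per kilobase of transcript, scaled to the mapped total of the library, so that genes of different length can be set side by side.

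Both libraries come from Vil-CreERT2;Mettl3 fl/fl organoids, grown from crypts of mouse small intestine and labelled C57BL/6. Organoids are hollow epithelial structures in Matrigel that keep crypt-like buds. The medium, ENR, supplies EGF, Noggin and R-spondin1. EtOH, the vehicle of 4-OHT, was given for 2 days and DMSO, the vehicle of Nec-1, for 5 days. These organoids therefore carry both floxed Mettl3 alleles and a Cre recombinase that is driven by the villin promoter and waits for its ligand, the genotype of all RNA-seq groups. The study used male mice aged 2 to 4 months. How many animals stand behind the 2 libraries is not given in the sources used here, so the gap between them may be technical.

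The small intestinal epithelium renews itself from Lgr5-positive stem cells at the crypt base, which lie between Paneth cells and are kept by Wnt, Notch and EGF signals and by low BMP signalling. Their daughters divide and become absorptive enterocytes or secretory goblet, Paneth, enteroendocrine and tuft cells. Along the gut, GATA4 marks the proximal small intestine, bile acid uptake genes mark the ileum, and posterior Hox genes mark the colon.

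Some checks of the labels come first. Mettl3 (ENSMUSG00000022160) had 2.70 and 2.71 FPKM in library 1 and library 2. It was at 2.41 and 2.47 in EtOH Nec-1, at 3.72 and 4.14 in 4-OHT DMSO and at 3.36 in 4-OHT Nec-1. The gene's FPKM was thus not lower in the libraries labelled 4-OHT. A value over the whole gene also counts exons that Cre leaves in place, and FPKM per exon was not analysed here. The sex-linked genes did not match male mice. Xist, the RNA that silences one X chromosome in females, was at 45.9 and 63.6 FPKM, and between 35.7 and 63.6 in all 7 libraries. The Y-linked genes Ddx3y, Eif2s3y, Kdm5d and Uty were listed at 0 in both EtOH DMSO libraries, and none exceeded 0.0122 in any of the 7. The libraries otherwise differed little in scale. FPKM summed to 476574 in library 1 and 450207 in library 2, and the spacing of the lowest values put the depth of library 2 at 1.03 times that of library 1. Fragment counts are unknown.

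Of 54838 genes, 11443 (20.9%) reached 1 FPKM in both libraries and are called expressed. Under 0.1 FPKM in both were 35711 genes (65.1%), of which 30593 were listed at 0 in both. Of the 20969 genes that RefSeq lists as protein-coding or that encode a mitochondrial protein, 46.3% were expressed and 40.2% were under 0.1 FPKM. Expressed genes had a median of 6.51 FPKM in library 1 and 6.81 in library 2. At 10 FPKM or more in both libraries were 4062 genes, at 100 or more 548 and at 1000 or more 52. The output was concentrated, with 122 genes holding the first 50% of the FPKM sum in library 1 and 131 in library 2.

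The most abundant RNAs were those of the mitochondrion. The 37 mitochondrially encoded genes took 16.4% of the FPKM sum in library 1 and 15.7% in library 2, of which the 13 protein genes took 13.9% and 13.6%. The highest gene of all, mt-Co1, a subunit of cytochrome c oxidase, was at 25402 and 22694 FPKM. The next of the mitochondrially encoded genes, mt-Co2 of the same enzyme, was at 10216 and 8323, and mt-Co3 was at 5130 and 4336. Among the 30 genes with the highest mean, 11 were mitochondrial, among them the complex I gene mt-Nd1 (5243 and 4550), mt-Cytb (4291 and 4253), mt-Nd6 (3985 and 3245), mt-Nd2 (2167 and 1999) and the small ribosomal RNA mt-Rnr1 (2155 and 1809). Library 1 was the higher for 8 of the 11, while mt-Atp8 (3009 and 4689), mt-Nd4 (2062 and 2131) and mt-Nd5 (1859 and 2147) were higher in library 2.

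Several of the other top genes are copies of mitochondrial or ribosomal sequence, so their own level is uncertain. Gm10925, at 4972 and 5056 FPKM, is a pseudogene in a nuclear copy of mitochondrial DNA (RefSeq, GRCm38.p6, chr1:24613971-24614651). AY036118, a long non-coding RNA gene at chr17:39848112-39898385 in a locus known for ribosomal RNA sequence, was at 8088 and 10467. Of the 30, 8 have no RefSeq entry by their symbol, led by Gm29216 at 12767 and 9764 and Gm23935 at 8776 and 11250. The others were Gm28661, Gm28437, Gm26377, Gm22133, Gm27597 and CT010467.1, from 10057 and 8335 for the first to 1623 and 2281 for the last. The pseudogene Gm13394 stood at 2332 and 2384. Pseudogenes took 9.52% and 9.60% of the FPKM sum, and 820 of 8327 were expressed. In the Gapdh family the higher value stood at a pseudogene. The glycolytic gene itself, on chr6, was at 34.2 and 31.5 FPKM, while Gapdh-ps15 was at 169 and 141. Gapdh-ps15 is annotated on the Y chromosome, where 331 of 334 annotated genes were listed at 0 in both libraries. Levels of genes with near-identical copies are given below as they were deposited, with that limit.

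The protein-coding nuclear genes among the top 30 were genes of the ribosome and of translation, alpha-defensins and Lgals2. Ribosomal protein genes took 11.7% of the FPKM sum in library 1 and 10.5% in library 2. Of 93 such genes 88 were expressed and 82 reached 100 FPKM in both libraries, with a median among the expressed of 468 and 401. Rplp1, an acidic protein of the large subunit's stalk, led at 2662 and 2365, followed by Rps15 (2473 and 2168), Rpl36 (1984 and 1685) and Rps3a1 (1989 and 1655). Eef1a1, the elongation factor that brings aminoacyl-tRNA to the ribosome, was at 3710 and 3383. All 16 translation factors listed were expressed, Eef2 (927 and 1002) and Tpt1 (941 and 779) next after Eef1a1. Lgals2, a galectin, was at 3716 and 3009 FPKM. Also in the top 30 were 2 alpha-defensins, the antimicrobial peptides of Paneth cells, Defa24 at 4333 and 4194 and Defa17 at 2117 and 1704.

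**Figure D1:**
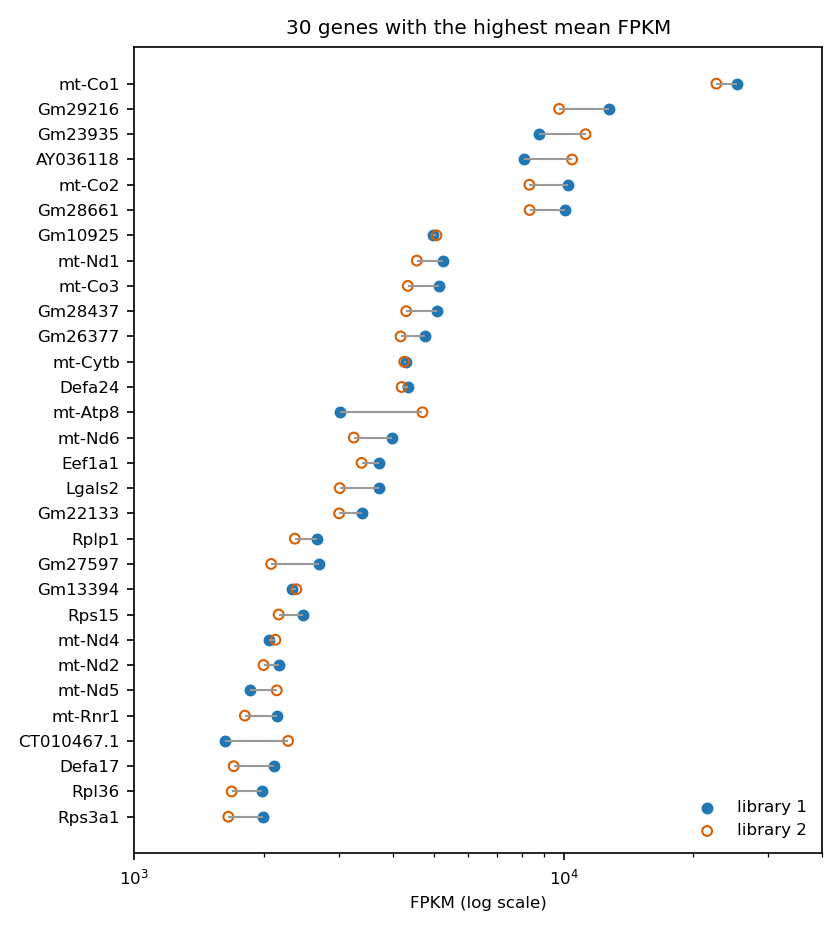
FPKM of the 30 genes with the highest mean in the 2 EtOH DMSO libraries, on a log axis, 1 gene per line, with filled points for library 1, open points for library 2 and a line between them. mt-Co1 stands apart at 25402 and 22694, and mt-Atp8 shows one of the wider gaps, 3009 against 4689.

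Below the top 30, the leading nuclear protein-coding genes outside the ribosome were of mixed kinds. Among them were genes of absorptive and secretory epithelium, of iron storage and of detoxification, and Pgk1 (1095 and 1014), often used as a reference gene. Tff3, a peptide secreted with mucus, was at 1043 and 945 FPKM. The ferritin chains Ftl1 (1208 and 1372) and Fth1 (1278 and 1160) store iron. Glutathione S-transferases, which conjugate electrophiles to glutathione, had 3 genes above 1000 FPKM in both libraries, Gstp1 (1234 and 1266), Gstm1 (1187 and 1204) and Gstm3 (1036 and 1051). Sprr2a1, a small proline-rich protein, was at 1008 and 987.

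The alpha-defensin genes lie in a cluster on mouse chr8, and the 19 expressed ones span chr8:21025545-21735471 (GRCm38.p6). Of 22 genes with a Defa symbol, 15 reached 100 FPKM in both libraries, and together the 22 took 2.78% and 2.60% of the FPKM sum. All 19 were lower in library 2, as were 82 of the 88 expressed ribosomal protein genes. For the 212 genes at a mean of 300 FPKM or more, the median difference of log2(FPKM + 1), library 1 minus library 2, was 0.15. The direction was thus shared with other abundant genes. The sequences of the alpha-defensin genes are close to each other, so the split of reads between them is uncertain. The 50 bases before the start site of 4 of these genes are shown here. They were picked as the most abundant alpha-defensin genes that hold the motif TATAAA there, among those with a promoter available. Beside them is the same stretch of Fabp1, which encodes the enterocyte fatty acid binding protein and also holds the motif. Krt8 and Eef1a1 are shown as abundant genes without it. The sequences are from RefSeq (GRCm38.p6), 5′ to 3′ on the strand of the gene and ending at the base before the start. Capitals mark TATAAA, the letters of a TATA box, where it begins 20 to 40 bases before the start.
Defa20 (chr8:21509208-21509257, plus strand): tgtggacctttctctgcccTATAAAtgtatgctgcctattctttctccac
Defa2 (chr8:21378467-21378516, plus strand): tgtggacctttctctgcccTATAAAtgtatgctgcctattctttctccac
Defa32 (chr8:21528980-21529029, plus strand): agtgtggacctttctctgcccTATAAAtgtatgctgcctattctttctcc
Defa23 (chr8:21054990-21055039, plus strand): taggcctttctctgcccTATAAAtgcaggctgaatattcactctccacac
Fabp1 (chr6:71199829-71199878, plus strand): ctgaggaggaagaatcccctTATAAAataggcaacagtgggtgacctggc
Krt8 (chr15:102004343-102004392, minus strand): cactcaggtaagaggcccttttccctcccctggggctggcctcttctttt
Eef1a1 (chr9:78481725-78481774, minus strand): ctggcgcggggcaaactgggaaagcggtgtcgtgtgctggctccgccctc

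Defa20 was at 777 and 623 FPKM, Defa2 at 611 and 559, Defa32 at 490 and 424 and Defa23 at 461 and 381. The 50 bases of Defa20 and Defa2 were the same letter for letter. Of 11 expressed alpha-defensin genes with a promoter in the RefSeq table, 7 held TATAAA in this window on the gene's strand. Those without it were Defa30 (1090 and 989 FPKM, the highest of the 11), Defa37 (293 and 268), Defa36 (264 and 239) and Defa35 (14.9 and 12.6). Over all 16802 protein-coding promoters matched, 2.77% held it. The share was 5.30% for the 4883 genes listed at 0, 1.09% for 5057 genes with a mean of 1 to 10 FPKM and 4.60% (16 genes) for 348 genes at 100 or more. Of those 16, 7 were alpha-defensins, and the others included Fabp1 (471 and 427), the peroxiredoxin gene Prdx1 (356 and 298) and Nqo1 (176 and 180), a quinone reductase. CpG dinucleotides, which are frequent in promoters of widely used genes, were rarer before genes listed at 0. The median ratio of observed to expected CpG over the 250 bases before the start was 0.184 for genes listed at 0, 0.749 at 1 to 10 FPKM and 0.683 at 100 or more. A match is a description of these letters and not of a factor's binding.

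The epithelial markers were all present. All 16 genes of the epithelial list were expressed and 11 reached 100 FPKM in both libraries. Counts expressed in this list and in those below can be set against the 46.3% of all protein-coding genes. Krt8, a keratin of simple epithelia, was at 1219 and 1185 FPKM, Krt19 at 958 and 885, and the adhesion molecule Epcam at 609 and 492. Cdh1, which encodes E-cadherin, was at 153 and 167. The intestinal factor Cdx2 was at 132 and 137 and Vil1, the gene whose promoter drives the Cre here, at 102 and 120. The 20 proliferation genes were expressed as well, at a median of 17.4 FPKM, with Pcna, the clamp of the DNA polymerase, at 96.0 and 77.8, Top2a at 28.1 and 29.3 and Mki67 at 22.8 and 25.2.

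Stem cell markers were expressed at moderate or low levels. Of 20 listed genes 18 were expressed, at a median of 6.98 FPKM, and none reached 100. Lgr5, the R-spondin receptor that defines the crypt base stem cell, was at 1.26 and 1.52 FPKM. Ascl2, a transcription factor of the same cell, was at 2.70 and 1.98, Smoc2 at 12.1 and 11.8 and Olfm4 at 24.3 and 21.4. The highest member was Hopx, at 87.2 and 76.9, a homeodomain protein used as a marker of slowly cycling cells and also found elsewhere in the epithelium. Slc12a2 followed at 28.6 and 29.0. Tnfrsf19 (0.0741 and 0.116) and Znrf3 (0.998 and 1.10) were the 2 that missed the limit. In a bulk library, few cells of a type and little RNA per cell cannot be told apart, and this holds for each lineage that follows.

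Enterocyte genes were broadly expressed, 29 of 31 at a median of 34 FPKM, with 8 at 100 or more. Fabp1 was at 471 and 427, and Sis, the sucrase-isomaltase of the brush border, at 279 and 305. Apoa1, an apolipoprotein of chylomicrons and HDL, was at 199 and 183, and Alpi, the intestinal alkaline phosphatase, at 76.0 and 78.1. The 2 members under the limit were Lct, which encodes lactase, at 0.164 and 0.383, and the peptide transporter gene Slc15a1 at 0.506 and 0.568.

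Paneth cell genes had the highest median of the 9 intestinal cell lists, 228 FPKM, with 18 of 19 expressed and 11 at 100 or more. Several members are alpha-defensins, and the median fell on one of them, Defa22 (233 and 224). The median therefore carries the uncertain split of reads between those genes. Lyz1, the lysozyme of these cells, was at 852 and 783 FPKM. Ang4, an antimicrobial ribonuclease, was at 297 and 238, and Mmp7, the protease that activates alpha-defensins in the mouse, at 51.7 and 46.4. Defa30, the third member after Defa24 and Defa17, was at 1090 and 989. Wnt3, the Wnt ligand that Paneth cells give to stem cells, was the one member below 1 FPKM, at 0.847 and 0.942.

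Goblet cell genes ranged widely, with 15 of 17 expressed. Tff3 led at 1043 and 945 FPKM, and Agr2, a protein disulfide isomerase needed for mucin folding, was at 198 and 177. Fcgbp was at 64.3 and 78.9, Clca1 at 27.4 and 34.4 and Muc2, the gel-forming mucin of the gut, at 17.6 and 20.2. Spdef, a transcription factor of goblet and Paneth cells, was at 3.77 in library 1 and 1.89 in library 2, the widest gap in the list at 2.00 times. Retnlb was listed at 0 in both and Muc4 was at 0.773 and 0.948.

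Enteroendocrine genes were present, and the leading hormones were well above the listed transcription factors. Of 25 listed genes, 17 were expressed. The chromogranins, which pack hormone granules, were at 132 and 142 FPKM for Chgb and at 18.0 and 19.4 for Chga. The incretin gene Gip led at 157 and 145, and Gcg, which encodes glucagon-like peptides, was at 54.8 and 51.7. Neurog3, the factor that starts this lineage, was at 1.17 and 1.05, and Neurod1, which acts after it, at 1.38 and 1.44. Cck (42.4 and 54.6) and Sst (28.8 in both) came next among hormones, while Insl5 (0.208 and 0.329), a hormone of the distal gut, and Ucn3 (0.440 and 0.410) were below the limit and below both factors.

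Tuft and M cell genes were mostly low. Of 20 tuft cell genes 8 were expressed, and none of the 4 defining ones. Dclk1 was at 0.801 and 0.805 FPKM, the ion channel gene Trpm5 at 0.676 and 0.806, the lineage factor Pou2f3 at 0.478 and 0.671 and Gfi1b at 0.178 and 0.223. Il25, the cytokine that tuft cells release, and Gnat3 were listed at 0 in both. The highest member, Cd24a at 144 and 129, is also used by other epithelial cells, and Sh2d6 was at 2.13 and 3.17. For M cells, which sample antigen above lymphoid follicles, 4 of 8 genes were expressed. Spib was at 1.77 and 1.10, Anxa5, which many cells express, at 13.4 and 16.8, and Tnfrsf11a, the receptor of RANKL, at 5.34 and 5.76. Gp2, the receptor that marks mature M cells, and Sox8 were listed at 0.

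**Figure D2:**
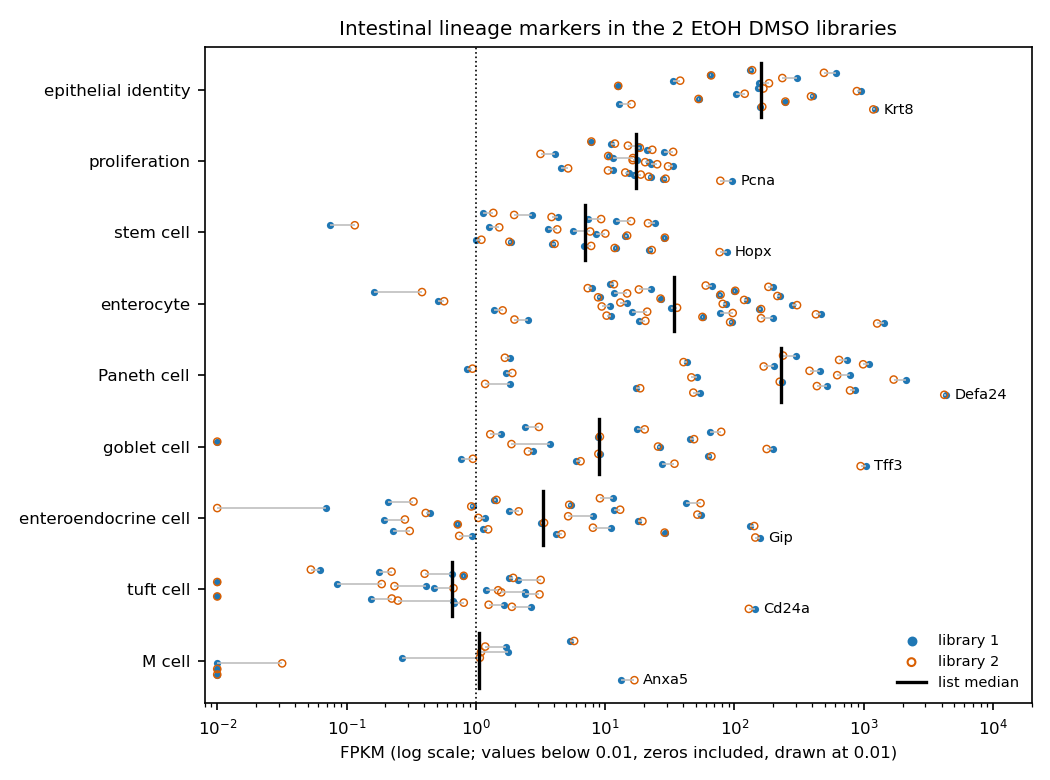
FPKM of the members of 9 intestinal cell lists in the 2 EtOH DMSO libraries, on a log axis with values below 0.01 drawn at 0.01; filled points are library 1, open points library 2, the black bar is the list median of the 2-library mean and the dotted line 1 FPKM. Paneth cell genes, several of them alpha-defensins, have the highest median, 228, and the median of tuft cell genes, 0.658, lies below the dotted line.

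The order of these lists by median was the same in either library. It ran from Paneth cell (228 FPKM) through epithelial identity (161), enterocyte (34), proliferation (17.4), goblet cell (8.96), stem cell (6.98), enteroendocrine cell (3.28) and M cell (1.05) to tuft cell (0.658). The order describes these lists and not numbers of cells, and the place of the Paneth cell list depends on its alpha-defensin members.

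Regulators of the choice between absorptive and secretory fates were mostly present, with 13 of 15 expressed. Hes1, the Notch target that represses secretory fate, was at 39.1 and 33.1 FPKM and Atoh1, the factor that specifies secretory cells, at 6.64 and 8.81. Klf4 was at 16.6 and 17.8, Sox4 at 11.1 and 12.8, and Gfi1 at 0.717 and 0.430. Of the genes of regenerating and fetal-like epithelium 11 of 17 were expressed, led by the EGF receptor ligand Areg at 98.3 and 107, Sprr1a at 31.9 and 49.2 and Krt7 at 26.6 and 27.8. Ly6a, which encodes Sca-1, was at 20.9 and 12.1, Clu at 4.75 and 6.69 and Anxa1 at 4.72 and 5.76. Of 8 genes of the villus tip and shed cells 6 were expressed, with Apoa4 at 96.2 and 92.6, Klf4 as above and the liver and gut factor Creb3l3 at 13.2 and 13.6. Nt5e, an enzyme of the villus tip that makes adenosine, was at 0.165 and 0.176.

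Of the region lists, the proximal and the ileal one had most of their members expressed, and the defining genes were higher in the proximal one. Of 16 proximal genes 11 were expressed, the 3 defining ones included. Gata4, the proximal zinc finger factor, was at 33.4 and 34.2 FPKM, Onecut2 at 7.39 and 9.28 and Pdx1, a duodenal homeobox factor, at 6.78 and 5.15. After Fabp1, the alcohol dehydrogenase Adh1 (451 and 431) and Dmbt1 (106 and 144) were the highest. The calcium channel gene Trpv6, which acts in the duodenum, and Cyp8b1 were listed at 0, while S100g, the calcium buffer that works with Trpv6, was at 75.9 and 70.7.

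Of 14 ileal genes 10 were expressed, but the defining ones were low. Fabp6, the ileal bile acid binding protein, was at 6.72 and 3.98 FPKM. The bile acid transporter gene Slc10a2 was at 0.737 and 1.35, and Fgf15, the hormone that bile acids induce, at 0.459 and 0.879. The highest members were Tcn2, a cobalamin carrier, at 47.7 and 46.8, Bche at 21.3 and 23.1 and Ces1e at 16.5 and 17.0. Nr1h4, which encodes the bile acid receptor FXR, was at 16.3 and 16.1.

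Most colonic and gastric genes stayed below 1 FPKM. Of 19 colonic genes 6 were expressed and 6 were listed at 0. Car1, the colonic carbonic anhydrase, was at 1.03 and 0.583 FPKM, and Hoxb13 was listed at 0. The highest of the 6 were Sprr2a2 (774 and 596), which has near-identical copies, Cyp2c55 (35.9 and 35.1) and the sulfate transporter gene Slc26a2 (7.15 and 8.87). Slc26a3 (6.57 and 7.24), Mettl7b (3.04 and 3.21) and Car4 (1.15 and 1.35) were expressed as well. Of 18 gastric genes 1 was expressed, Gkn3 at 3.09 and 1.98. Tff1 was at 0.712 and 0.505, Gkn1 at 0.0345 and 0, and Gkn2 and the gastric mucin gene Muc5ac were listed at 0. Next after Gkn3 and Tff1 came Atp4a, a subunit of the acid pump, at 0.321 and 0.738.

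Hox genes, which carry position along the body axis, were low throughout. Of 39 genes 1 was expressed, Hoxb9 at 1.97 and 1.86 FPKM, followed by Hoxb7 (1.13 and 0.913) and Hoxb8 (0.828 and 0.887). The values fell almost wholly in the A and B clusters. The summed FPKM of the HoxB genes was 5.76 and 5.90 and that of the HoxA genes 1.55 and 1.62. The 9 HoxC genes were listed at 0 in both libraries, and the 9 HoxD genes summed to 0.0736 and 0.0196.

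Genes of the oesophagus, pancreas and liver were absent apart from a few. Of 16 genes 5 were expressed, and Ttr (10.3 and 9.38), Alb (10.8 and 8.31) and Afp (7.87 and 8.80), which encode plasma proteins of the liver and yolk sac, were the highest. The elastase gene Cela1, counted here with the pancreas, was at 4.96 and 3.95 FPKM, while the pancreatic genes Cpa1, Pnlip, Amy2a5, Ptf1a, Ins1 and Ins2 were listed at 0.

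Markers of cells outside the epithelium were at or near 0. Of 22 immune genes 3 were expressed, and 17 were under 0.1 FPKM in both libraries. Ptprc, which encodes CD45 and marks all white blood cells, was at 0.00823 and 0.00266, and Cd3d, Cd4, Cd8a and Itgax were listed at 0. The 3 expressed were Cd14 (3.53 and 4.37), a co-receptor for bacterial endotoxin that epithelial cells can also express, Itgam (1.96 and 1.19) and Kit (1.11 and 1.08). Cd68, a macrophage lysosomal protein, was at 0.774 and 2.01. None of 16 fibroblast and muscle genes was expressed. Col1a1 was at 0.0150 and 0.0878, Pdgfra at 0 and 0.00485, and the highest were Vim (0.776 and 0.937), Pdgfrb (0.678 and 0.220) and Tagln (0.0771 and 0.0610). Of 10 endothelial genes 1 was expressed, Lyve1 at 2.87 and 4.12, with Pecam1 at 0.0323 and 0.0346 and Cdh5 at 0. None of 10 neural and glial genes was, S100b being highest at 0.468 and 0.439, ahead of Tubb3 (0.305 and 0.297) and Ret (0.25 and 0.339). None of 6 red blood cell genes was, with Hbb-bs at 0.784 and 0.710, Hba-a1 at 0.644 and 0.291 and Hba-a2 at 0.580 and 0.344. The defining marker of each of the first 3 of these classes was thus under 0.1 FPKM in both libraries.

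**Figure D3:**
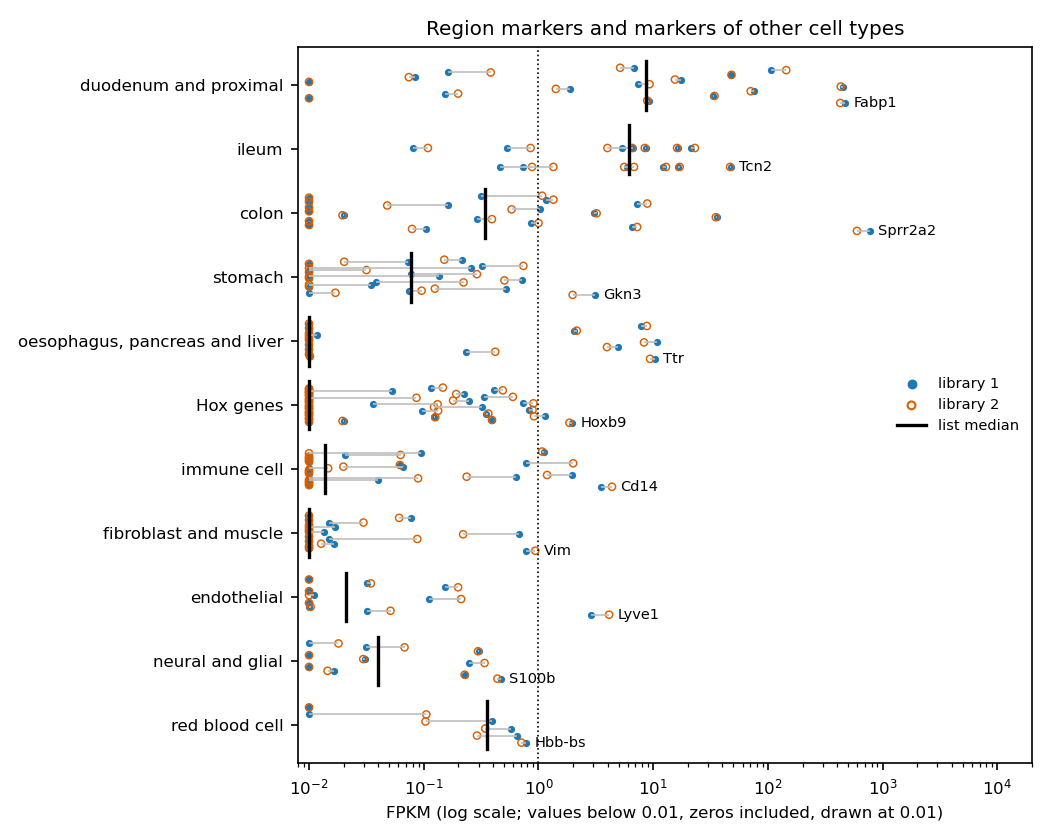
FPKM of region markers, Hox genes and markers of cells outside the epithelium in the 2 EtOH DMSO libraries, on a log axis with values below 0.01 drawn at 0.01; filled points are library 1, open points library 2, the black bar is the list median and the dotted line 1 FPKM. Proximal and ileal lists have medians of 8.68 and 6.16, and the colon list and those below it have medians under 1.

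Receptors and ligands of the crypt niche were split. Wnt and R-spondin receptors, listed together, were expressed in 14 of 19 cases (73.7%, against 46.3% of protein-coding genes). Lgr4, an R-spondin receptor like Lgr5, was at 17.9 and 18.7 FPKM. The Wnt receptor genes Fzd5 and Fzd7 were at 16.5 and 18.2 and at 9.62 and 10.3. The co-receptors Lrp5 and Lrp6 were at 6.30 and 8.12 and at 6.24 and 7.13. None of the 19 Wnt ligands was expressed. Wnt3 was highest at 0.847 and 0.942, just under the limit, followed by Wnt5b (0.553 and 0.302) and Wnt2b (0.101 and 0.243). Of 15 R-spondins and secreted Wnt inhibitors 1 was expressed, the Wnt deacylase gene Notum at 1.33 and 1.82, ahead of Rspo4 (0.516 and 0.416) and Sfrp5 (0.210 and 0.230). Rspo1, whose protein is in the medium, was listed at 0. The libraries thus held mRNA of Wnt receptors with little of their ligands.

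Of Notch receptors and ligands 6 of 9 were expressed (66.7%, against 46.3% of protein-coding genes). Jag2 (5.24 and 6.38), Dll1 (3.06 and 3.65) and Jag1 (3.14 and 3.55) were above Notch1 (1.17 and 1.5). For the BMP and TGF-beta family, 8 of 13 receptors (61.5%) and 6 of 20 ligands and secreted inhibitors (30%) were expressed. The receptor genes Acvr1b (22.1 and 28.6), Bmpr1a (21.5 and 21.6) and Tgfbr2 (11.5 and 13.6) led. Among ligands, Gdf15 (8.59 and 10.1), a stress-induced member, Bmp7 (5.09 and 5.99) and Bmp2 (3.62 and 4.60) led. Nog, which encodes Noggin, and Grem1, both BMP antagonists of the niche, were listed at 0.

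Receptor tyrosine kinases were expressed in 15 of 47 cases (31.9%, against 46.3% of protein-coding genes). Erbb3 was at 24.1 and 31.3 FPKM, Erbb2 at 21.1 and 25.5 and Ephb4 at 13.8 and 16.4. Egfr, the receptor for the EGF in the medium, was at 2.24 and 2.64. Of its ligands 6 of 11 were expressed (54.5%), Areg far above Btc (9.76 and 10.1) and Hbegf (8.73 and 10.7), while Egf itself was at 0.0578 and 0.0301. Integrins, which bind the matrix, were expressed in 7 of 15 cases (46.7%), near the share of all protein-coding genes. Itgb1 was at 78.2 and 78.9, Itga3 at 13.1 and 15.4 and Itga2 at 9.46 and 11.3. Itgav was at 1.81 in library 1 and 0.456 in library 2.

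Groups of cytokine receptors differed in the share expressed, against 46.3% of protein-coding genes. All 6 interferon receptor genes were expressed, from Ifngr1 (35.8 and 50.5), Ifngr2 (43.0 and 40.2) and Il10rb (10.9 and 9.16) to Ifnar2 (1.41 and 1.48). Ifnlr1, the epithelial receptor chain for type III interferon, was at 3.51 and 4.71. Of 47 interleukin and related receptors 11 were expressed (23.4%). Il17rc (23.4 and 25), Il13ra1 (12.9 and 13.6) and Il4ra (3.46 and 3.77) led, and Il22ra1, the chain that gives epithelium its response to IL-22, was at 1.51 and 2.27. The IL-1 receptor gene Il1r1 (0.00787 and 0) and Il6ra (0.0575 and 0.0617) were near 0. In the TNF receptor superfamily 10 of 25 were expressed (40%), near the share of all protein-coding genes. Ltbr was at 68.0 and 62.3, Tnfrsf1a, the main receptor for TNF, at 31.5 and 35.8, and Tnfrsf12a at 13.3 and 15.0. Fas was at 2.1 in library 1 and 1.00 in library 2, a gap of 2.1 times.

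Few Toll-like receptors were expressed, whereas cytosolic RNA sensors mostly were, against 46.3% of all protein-coding genes. Of 12 Toll-like receptors 1 was expressed, Tlr3, which binds double-stranded RNA, at 2.90 and 3.37 FPKM. Tlr1 (0.593 and 0.689) and Tlr6 (0.464 and 0.587) came next. Tlr5, the flagellin receptor, was at 0.323 and 0.314, Tlr4, the endotoxin receptor, at 0 and 0.0173, and 6 others were listed at 0. Yet 8 of 10 accessory genes were expressed, among them Tollip (11 and 12.1), Ticam1 (11.5 and 10.9), the adaptor of TLR3, and Unc93b1 (10.8 and 11.1), which carries TLR3 to the endosome. C-type lectin and scavenger receptors were expressed in 3 of 16 cases, Clec2h (59.1 and 55.1), Scarb2 (15.6 and 16.5) and Scarb1 (4.09 and 4.10).

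Of NOD-like receptors and inflammasome genes 14 of 28 were expressed (50%), close to the 46.3% of all protein-coding genes, and 9 were near absent. Nlrp6, a sensor of the intestinal epithelium, was at 51.4 and 62.5 FPKM, and Casp1 (71.3 and 66.2) and the adaptor gene Pycard (46.5 and 53.9) were at like levels. Nlrc4, which responds to flagellin through NAIP proteins, was at 8.80 and 10.5. Nod2, the muramyl dipeptide sensor, was at 0.174 and 0.269, and Nlrp3 and Il1b were listed at 0, while Il18, the other cytokine that caspase-1 releases, was at 23.6 and 24.8. Cytosolic RNA sensors and adaptors were expressed in 10 of 11 cases (90.9%). The adaptor gene Mavs was at 14.6 and 16.9, Dhx9 at 10.1 and 12.8 and Eif2ak2, which encodes PKR, at 10.2 and 10.9. The RIG-I gene Ddx58 was at 1.52 and 1.71 and the MDA5 gene Ifih1 at 2.39 and 2.73. Zbp1, a Z-nucleic acid sensor that can engage RIPK3, was the exception at 0.0285 and 0.0689. Of 9 genes of DNA sensing 6 were expressed, Cgas at 2.19 and 2.22, Tmem173, which encodes STING, at 1.13 and 1.10, and Irf3, Tbk1 and Samhd1 at 10.6 and 10.2, 7.47 and 7.89, and 6.75 and 7.15.

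Nuclear receptors, which answer to lipids, hormones and drugs, were expressed in 31 of 49 cases (63.3%, against 46.3% of protein-coding genes). Hnf4a, a factor of enterocyte identity, was at 155 and 185 FPKM and Esrra at 42.7 and 46.5. The vitamin D receptor gene Vdr was at 31 and 35.5, the xenobiotic receptor genes Nr1i3 and Nr1i2 at 21.3 and 23.1 and at 20.5 and 23.6, and the steroid receptor genes Nr3c1 and Nr3c2 at 9.72 and 14.2 and at 1.40 and 2.65. The sex steroid receptor genes Esr1 and Pgr were both listed at 0 in library 1 and were at 0.00711 and 0.00569 in library 2. Of 5 bHLH-PAS factors 4 were expressed, Hif1a at 13.6 in both libraries, Epas1 at 5.39 and 6.5, Arnt at 2.71 and 3.95 and Ahr, the aryl hydrocarbon receptor, at 2.70 and 2.97.

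Receptors for nutrients, hormones and transmitters were expressed less often than protein-coding genes as a whole, of which 46.3% were. Of 30 nutrient and metabolite receptors 5 reached the limit, the lysophosphatidic acid receptor genes Lpar6 (8.68 and 7.16), Lpar5 (6.40 and 8.17), Lpar1 (4.08 and 4.45) and Lpar2 and the fatty acid receptor gene Ffar4 (2.25 and 3.33). Gpr35 was at 0.0820 and 0.603. Of 37 hormone, peptide and transmitter receptors 3 did, Gucy2c (49.4 and 54.5), the receptor for guanylin, Vipr1 (11.4 and 12.6) and Adra2a (5.57 and 5.10), and 19 were listed at 0. The guanylin genes Guca2a (224 and 215) and Guca2b (85.7 and 81.1) were thus present with their receptor. Of 23 prostaglandin and purine receptors 7 were expressed, P2ry1 (19.5 and 22.2), P2rx4 (5.08 and 6.30) and Adora1 (2.75 and 3.74) highest, with Ptger4 at 1.37 and 1.81. Of 15 TRP and mechanosensitive channels 2 were, Trpm4 (8.34 and 9.98) and Trpm7 (5.30 and 6.02), and Piezo1 was at 0.935 and 1.46.

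**Figure D4:**
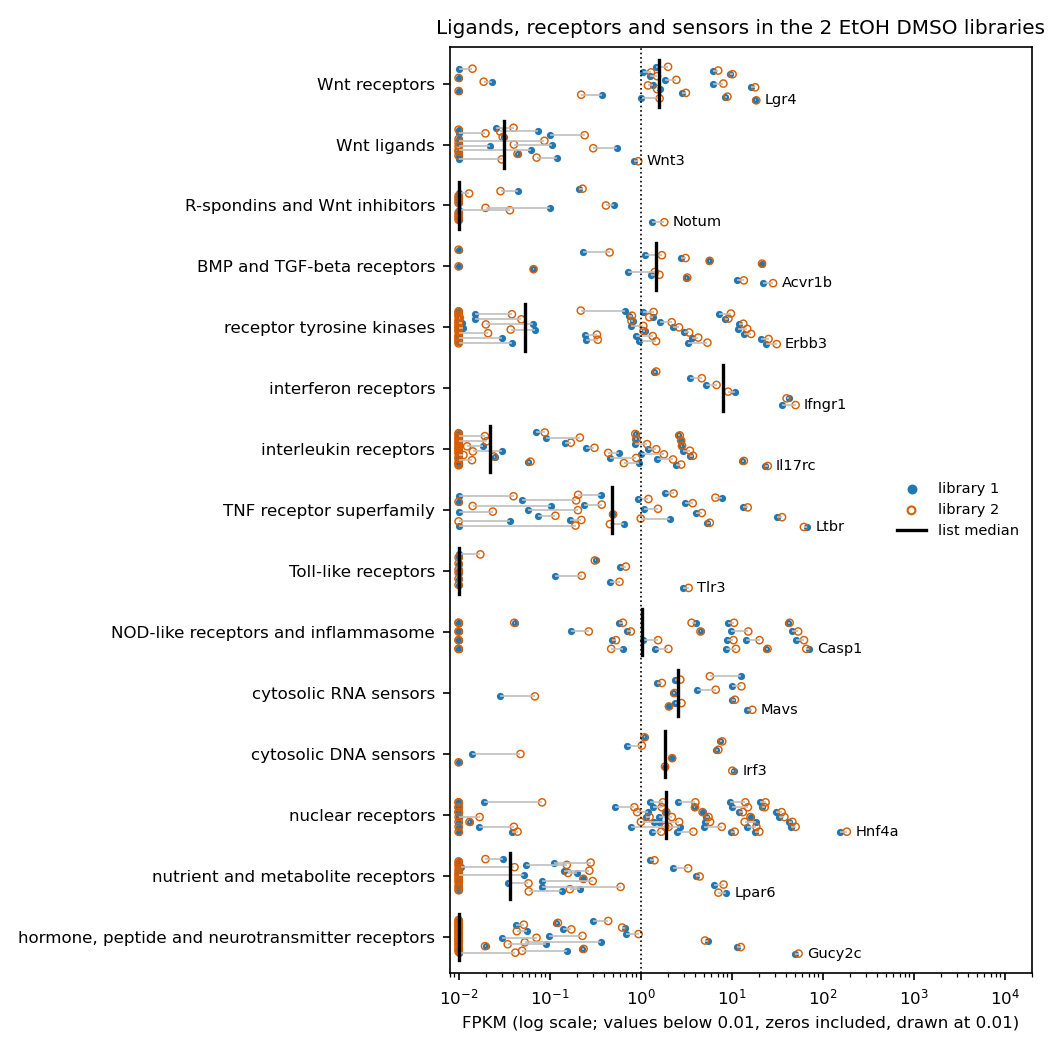
FPKM of ligands, receptors and sensors in the 2 EtOH DMSO libraries, on a log axis with values below 0.01 drawn at 0.01; filled points are library 1, open points library 2, the black bar is the list median and the dotted line 1 FPKM. All 6 interferon receptor genes lie right of the dotted line, none of the 19 Wnt ligands does, and Tlr3 is the one Toll-like receptor beyond it.

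Most genes of the cell death pathway that the study follows were expressed in this vehicle arm, in which no deletion was induced as far as the labels say. Of 17 such genes 14 were expressed (82.4%, against 46.3% of protein-coding genes). Casp8, the initiator caspase that cuts RIPK1, was at 48.7 and 50.6 FPKM, Ripk3, the necroptosis kinase, at 32.9 and 33.1, and Mlkl, its pore-forming substrate, at 3.83 and 3.77. Ripk1 was at 3.37 and 3.66, and Cflar, which encodes the caspase-8 regulator cFLIP, at 2.96 and 3.65. Bax (38.8 and 42.6), Tradd (23.6 and 21.1) and Fadd (5.64 and 4.93) were in between. Mettl14, the partner of Mettl3, was at 2.92 and 3.67. Of the transcription factors, Atf3 was at 5.75 and 6.63, Jun at 7.36 and 8.63, Csrnp1 at 0.958 and 1.35 and Fosb at 0.0481 and 0.0189. Tnf was at 1.00 and 1.38 and Bcl2 at 0.359 and 0.416. Of 15 immediate early and stress genes 14 were expressed, Cdkn1a (92.9 and 97.6), Junb (39.5 and 45.8) and Ier2 (32.9 and 35.9) highest. Of 20 interferon-stimulated genes 7 were, Bst2 (18.5 and 19.5), Oas1a (3.71 and 3.81) and Stat2 (2.42 and 4.86) highest.

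Reference genes, often used to normalize, spanned a wide range. All 16 were expressed, from Eef1a1, Rplp0 (1515 and 1404) and Pgk1 (1095 and 1014) down to Tbp (1.63 and 1.32). Actb was at 423 and 444. Of 12 non-coding RNAs 9 were expressed, the signal recognition particle RNA genes Rn7s1 (119 and 116) and Rn7s2 (117 and 117) and Malat1 (84.2 and 123) highest. Over all lists, 447 of 946 genes were expressed and 184 were listed at 0. Of the 447, 419 differed by at most 1.5 times between the libraries. Those that differed by more than 2 times numbered 5, among them Spdef, Fas, Stat2 and Msln (6.90 and 14.3), a gene of mesothelium and fetal epithelium.

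Across genes the libraries ran closely together. Taking the 11868 genes whose mean reached 1 FPKM, log2(FPKM + 1) had a Pearson's r of 0.983 and a Spearman's rho of 0.973. These are descriptions across genes of 2 libraries, and genes are not independent replicates. The difference of log2(FPKM + 1), library 1 minus library 2, had an SD of 0.32 and a median of -0.05. Within 1.5 times on this scale were 95.5% of the genes, and 181 (1.53%) differed by more than 2 times. The other pairs of the series give a scale. EtOH Nec-1 had r of 0.988 and an SD of 0.28 over 11575 genes, and 4-OHT DMSO had r of 0.958 and an SD of 0.50 over 12075, so the EtOH DMSO pair lay between them. Of the most abundant 30 genes of each library 29 were shared, and of the most abundant 100, 94.

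The gap between the libraries depended on the level. For 3179 genes at a mean of 1 to 3 FPKM the median difference was -0.09, for 1137 genes at 30 to 100 it was 0.05, and for 212 genes at 300 or more it was 0.15. Genes of high level were thus a little higher in library 1 and those of low level in library 2. Ribosomal protein genes were part of this, with a median of 0.20, and 82 of the 88 expressed were lower in library 2. The SD over all genes did not follow the level in 1 direction. It was 0.35 at 1 to 3 FPKM, 0.22 at 30 to 100, 0.46 at 100 to 300 and 0.25 at 300 or more. The class at 100 to 300 holds the tRNA gene mt-Ts2, at 0.323 and 232 FPKM. Among protein-coding genes alone the SD was 0.28 at 1 to 3 FPKM, 0.21 at 30 to 100, 0.18 at 100 to 300 and 0.22 at 300 or more.

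Some genes stood far apart. Of the 10 with the widest gaps at a mean of 5 FPKM or more, 5 had no RefSeq entry by their symbol. mt-Ts2, a mitochondrial serine tRNA, was at 0.323 and 232 FPKM. A gene without a symbol (ENSMUSG00000110423) was at 20.5 and 0, Gm28048 at 11.3 and 0.000285 and Gm47299 at 14.3 and 0.101. Sept2, a septin gene, has 2 identifiers. ENSMUSG00000116048 was at 1.78 and 41.8 while ENSMUSG00000026276 was at 24.2 and 5.14, so their sums, 26.0 and 46.9, were closer than either. The protein-coding genes were Bola1 (0.995 and 13.4), Golph3l (4.73 and 27.1) and Wdr74 (4.96 and 27.9), higher in library 2, and Nrn1 (37.4 and 6.71) and Zfp422 (9.12 and 1.35), higher in library 1. Genes at 1 FPKM or more in one library and under 0.1 in the other numbered 61, of which 7 were protein-coding.

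**Figure D5:**
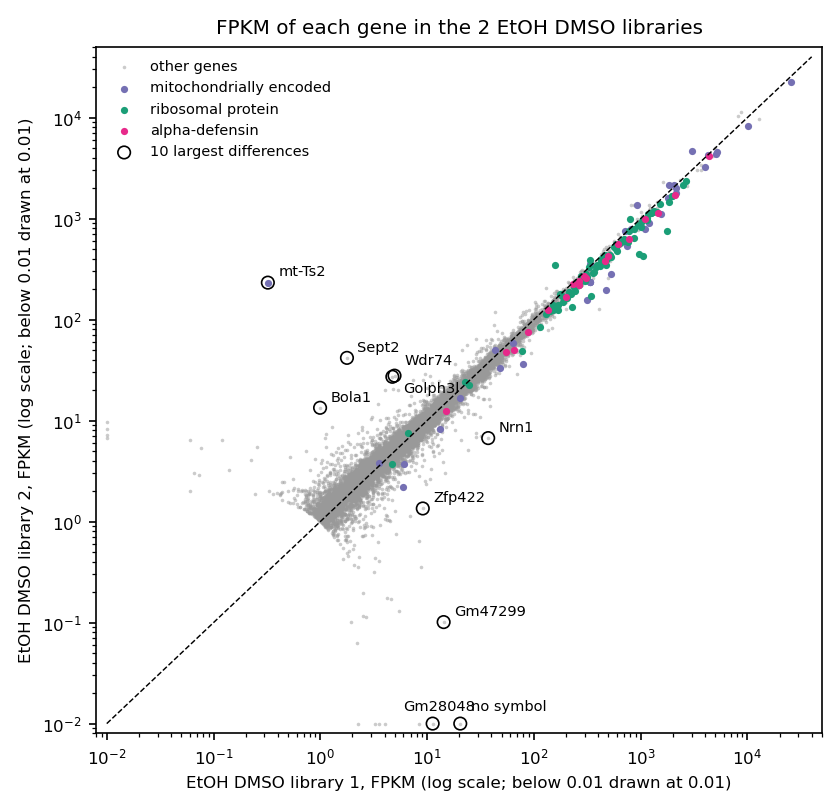
FPKM in library 1 against library 2 for the 11868 genes whose mean reached 1 FPKM, both axes on a log scale, with values below 0.01 drawn at 0.01 and the dashed line marking equal values. Circles mark the 10 widest gaps, among them mt-Ts2 at 0.323 and 232, and most ribosomal protein genes, in green, lie a little below the line.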

How the data were processed

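Bulk RNA-seq was analysed in the 2 EtOH DMSO libraries, with the other 5 libraries as a scale for replicate agreement, Mettl3 and the sex-linked genes. Total RNA was extracted with a column kit, libraries were prepared with the NEBNext Ultra RNA kit and sequenced on the HiSeq X platform. The submitters' processing notes name HISAT2 2.1.0, StringTie 1.3.3b and the build mm10, with no further settings. The annotation and the strandedness are not given in the sources used here, so antisense and overlapping genes cannot be told apart. The authors deposited FPKM, 1 value per Ensembl gene and library, for 54838 genes. One table held the values of 3 libraries, and 0 columns were left unmapped. The CUT&Tag samples were not analysed here.

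FPKM were used as deposited. A gene was called expressed at 1 FPKM or more in both libraries and near absent under 0.1 FPKM in both. Agreement was computed on log2(FPKM + 1) over genes whose mean reached 1 FPKM. No test was made, and no model was fitted. An exact 0 can be a failed estimate, so genes are described as listed at 0. Relative depth came from the spacing of values below 0.1 FPKM, and without fragment counts no counting interval can be given. FPKM of very short genes, such as tRNA and miRNA genes, are imprecise. Symbols came from a table that matched 54723 identifiers, and gene classes and coordinates from RefSeq (GRCm38.p6, the same assembly as mm10), by symbol, for 38044 genes. Where a symbol had several identifiers, the higher one was used.

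Named are Mettl3 and the cell death genes of the study, the 30 genes with the highest mean, the defining and the 3 highest genes of each of 54 lists, and the 10 genes at a mean of at least 5 FPKM with the widest gap. Other genes were named after their values were seen, and a few that the rule names are not reported here. The members and lists were chosen with earlier results of these data known. Of the listed symbols 6 had no match. Python 3.11.15, numpy 2.4.6, pandas 2.3.3 and matplotlib 3.10.9 were used.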

Additional observations from a re-analysis of the deposited data

How the results depend on the processing

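The count of expressed genes, 11443, stayed within 1.5 times under every alternative tried, from 9629 at a limit of 2 FPKM to 13383 with mitochondrial genes removed and each library rescaled to 1000000, and was 11750 to 11952 with either library alone. The count near absent, 35711, lay between 30593 (listed at 0) and 40690 (under 0.5 FPKM), and at 36875 to 37381 with 1 library. Agreement, r of 0.983, was 0.973 with a pseudocount of 0.1, 0.977 with 0.25, 0.990 with no filter on low values, 0.982 at a mean of at least 10 FPKM and 0.973 as Spearman's rho. With 1 library left out it has no value. Centring each library on its median leaves r and the SD as they are.

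Shares of the FPKM sum depend on what the sum holds. The 10 most abundant genes took 19.9% on average, 19.5% among protein-coding genes and 16.7% without mitochondrial genes (19.8% to 20.1% by library). Ribosomal protein genes took 11.1%, 15.1% among protein-coding genes and 13.2% without mitochondrial genes (10.5% to 11.7% by library). Mitochondrial genes took 16.0%, and 18.9% among protein-coding genes (15.7% to 16.4% by library). Of 54 list counts, 9 moved by more than 1.5 times at a limit of 0.5 FPKM, 10 at 2 FPKM, 1 with the limit met in 1 library, 9 after rescaling, 12 after rescaling without mitochondrial genes, 0 without library 1 and 1 without library 2. Among those that moved were tuft cell, where 3 of 20 passed 2 FPKM in place of 8, and Wnt and R-spondin receptors with 7 in place of 14. Wnt ligands moved too, where Wnt3 passed 0.5 FPKM. Hox genes had 4 at 0.5 FPKM and 2 in library 1 alone, in place of 1. By the median of the defining genes alone, enterocyte moved ahead of epithelial identity, goblet ahead of proliferation, and enteroendocrine ahead of stem cell. No paired analysis was possible because no result comes from a test between groups. FPKM without fragment counts limits what can be said of genes near 1 FPKM.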

Other observations

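Gene families outside the lists, chosen after their values were seen, were used unevenly in the EtOH DMSO libraries. Of all protein-coding genes 46.3% were expressed. Of 50 keratin genes 7 were expressed, and Krt20, a keratin of differentiated epithelium, was at 56.8 and 56.5 FPKM, with 31 keratins listed at 0. Of 23 claudins, the proteins of tight junctions, 8 were expressed. Cldn7 was at 306 and 235, Cldn3 at 244 and 248, Cldn15, which forms a sodium pore in the small intestine, at 184 and 178, and Cldn2 at 49.7 and 53.2. Of 13 mucins 4 were expressed, and the membrane mucin Muc13 (265 and 276) stood far above the secreted Muc2. Of 7 Reg lectins 5 were expressed, Reg4 (147 and 124), a marker of enteroendocrine and secretory cells, above Reg3g (25.4 and 29.3) and Reg3b (4.75 and 4.61), which are known to rise with microbes. Of 25 C-C chemokines 4 were expressed, with Ccl25 (45.0 and 32.4), the small intestinal T cell attractant, and Ccl28 (14.8 and 14.7) highest. Of 13 C-X-C chemokines 1 was, Cxcl16 at 7.73 and 7.53.

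Families of detoxification genes differed in how many members were expressed, against 46.3% of all protein-coding genes. Of 22 glutathione S-transferase genes 20 were expressed, and of 19 carboxylesterases 10, led by Ces2e (276 and 277). Of 94 cytochromes P450 27 were expressed, led by Cyp2c65 (128 and 120), and 48 were near absent. Of 50 ABC transporters 25 were expressed, Abcc3 (39.4 and 49.6) highest. In contrast none of 1107 olfactory receptor genes was expressed and 1076 were listed at 0, and none of 321 vomeronasal and 35 bitter taste receptor genes was. The highest olfactory receptor mean was 0.169 FPKM, for Olfr558.

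Among 1190 miRNA genes 33 reached 1 FPKM in both libraries. These values describe fragments over the hairpin gene in a long RNA library and not mature miRNA. Mir215 was at 26.1 and 23.6 FPKM and Mir194-1, its neighbour on chr1, at 19.3 and 20.4. Mir192, on chr19, was at 7.54 and 14.9, with Mir194-2 beside it at 0.364 and 1.63. The mature forms are shown because the first and the third share a seed, bases 2 to 8, in capitals (RefSeq, GRCm38.p6, 5′ to 3′).
mmu-miR-215-5p (chr1:185313610-185313630, plus strand): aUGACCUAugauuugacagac
mmu-miR-194-5p (chr1:185313325-185313346, plus strand): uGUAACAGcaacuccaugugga
mmu-miR-192-5p (chr19:6264857-6264877, plus strand): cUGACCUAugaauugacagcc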
